A study of Rattus norvegicus with 2 samples.

Results

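The 10 rat genes described here encode sulfiredoxin (Srxn1), the thioredoxin reductases Txnrd1 and Txnrd2, the thioredoxins Txn1 and Txn2, and the peroxiredoxins Prdx1, Prdx2, Prdx3, Prdx5 and Prdx6. They were chosen by gene name, among 27235 named genes on the array, and 12 probes with 40 spots carry their names. All 12 probes were well above background on both arrays, so the 10 genes are all among the 13062 genes measured on both. Cultures of IEC6, an immortal but non-tumorigenic line derived from rat small intestinal crypts, received sodium trisulfide (Na2S3) or water for 60 min. Na2S3 is a salt that releases polysulfide, a chain of sulfur atoms that reacts with protein thiols. Total RNA of each group was labelled with Cy3 and hybridised to 1 Agilent array with probes of 60 bases. Both groups were grown in DMEM with 10% fetal calf serum on dishes of 60 mm, and the treatment medium is given as DMEM with 0.1% serum. The sample's own label and the design text give the Na2S3 dose as 100 µM, whereas the treatment protocol gives 100 mM, so the dose is taken here as the labels' 100 µM with this disagreement unsettled. The labels name 1 cell line, and do not say how many dishes gave the RNA of each group.

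With 1 array per group, no difference between Na2S3 and water has a replicate check and no test was possible. "Higher" and "lower" therefore describe these arrays. The quantity compared is the log2 ratio of the processed signal, Na2S3 over water, after each array was scaled to its 75th percentile, which was 413 intensity units on the water array and 478 on the Na2S3 array. This scaling removed a shift of 0.21 on the log2 scale, so a gene whose signal is the same on both arrays has a negative ratio. Each ratio carries a spot error, which is the spread of ratios among repeat spots of similar brightness, or for the 3 members' probes spotted 10 times the spread of their own spots, divided by the square root of the number of spots. It covers the noise of spots within these arrays, not the difference between cultures. These 3 probes, of Txn1, Prdx1 and Prdx5, have the smallest spot errors of the family. Between arrays, the log2 signals of probes above background had a Pearson r of 0.993 across probes, which are not replicates. Of the 17 intestinal epithelial markers with a probe, 6 were measured (Cdh1, Krt8, Krt18, Krt19, Cdx1 and Ascl2), whereas Vil1, Cdx2, Epcam and Lgr5 were not above background. Of 11 fibroblast markers, 8 were measured, including Col1a1, Col1a2 and Vim, whereas Lum, Pdgfra and Pdgfrb were not above background. Thy1 and Acta2 were measured but dim, with water signals of 128 and 65.8. Dim epithelial markers were Krt18, Ascl2 and Krt19, with water signals of 142, 183 and 215. Bright probes were found in both lists, with water signals of 14703 for Cdh1 and 15892 for Krt8. Those of Col3a1, Col1a1 and Vim were 91981, 71687 and 38714. Of the measured markers of both lists, and of the 2 immune and 3 endothelial markers measured, 0 differed by 1.5-fold or more between the arrays, by each gene's brightest probe. The dimmer probe of S100a4, a fibroblast marker, had a log2 ratio of -0.84, against -0.27 for its brightest.

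Thioredoxin is a small protein whose paired cysteines reduce disulfides in other proteins, and thioredoxin reductase, a selenoenzyme, returns it to the reduced state with electrons from NADPH. Peroxiredoxins are abundant thiol peroxidases that remove hydrogen peroxide and organic peroxides and are mostly reduced by thioredoxin. When the peroxide-reacting cysteine of a typical 2-Cys peroxiredoxin is oxidised to a sulfinic acid, the enzyme is inactive until sulfiredoxin reduces it with ATP. Some of these genes are known targets of NRF2, a transcription factor released from KEAP1 when cysteines of KEAP1 are modified, which binds antioxidant response elements as a dimer with a small MAF protein.

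The 10 genes did not differ alike between the arrays. Srxn1 was 4.90-fold higher with Na2S3, Txnrd1 and Prdx6 were 1.65-fold and 1.64-fold higher, and the other 7 genes lay within 1.5-fold of the water array. Thus 1 of the 10 genes was at least 2-fold higher, where 0.942% of all measured genes were (123 of 13062), and 0 were at least 2-fold lower, where 0.62% of all measured genes were (81). With normexp background correction these counts over all genes were 61 and 31, while those of the 10 genes were the same. At 1.5-fold, 3 of the 10 genes were higher, against 2.96% of measured genes (387), and 0 were lower, against 3.41% (446). The median log2 ratio of the 10 genes was -0.07, and that of all measured genes was -0.04 with an SD across genes of 0.34. Of the 10 genes, 4 had a positive ratio (40%), as had 43.4% of all measured genes; 6 of the 10 were positive with quantile normalization, loess or the authors' deposited table. The middle of the family was therefore near that of the array, and Srxn1, Txnrd1 and Prdx6 stood away from it. In RNA of a whole culture, a response of some cells and a smaller one of all cells cannot be told apart.

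**Figure D1:**
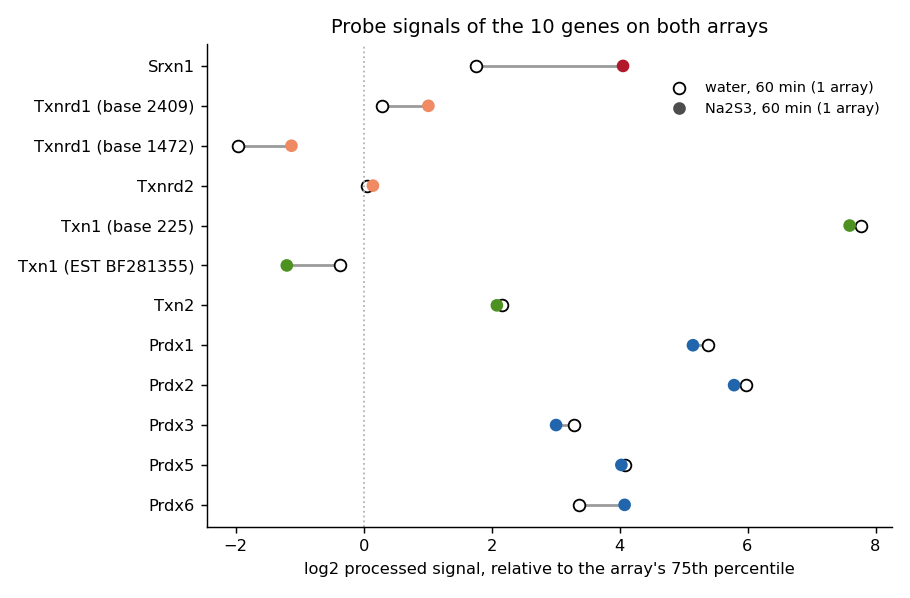
Log2 processed signal of each of the 12 probes relative to its array's 75th percentile, with open circles for the water array and filled circles for the Na2S3 array, coloured by role. Each line joins the values of 1 probe, and levels are not comparable between probes; the line of Srxn1 is the longest, at 2.29, and those of Txnrd1 and Prdx6 run the same way.

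Srxn1 encodes sulfiredoxin, the enzyme that restores over-oxidised peroxiredoxins. Its 1 probe, read by 1 spot, had a processed signal of 1402 on the water array and 7934 on the Na2S3 array. The scaled log2 ratio was 2.29 with a spot error of 0.09, and 2 spot errors either side gave 4.35-fold to 5.52-fold. It was the member farthest from 0 and ranked 19 among the 13062 measured genes counted from the highest ratio. The probe starts at base 2686 of transcript NM_001047858 and lies at chr3:142462543-142462602 of rn4 on the forward strand, 1 uninterrupted stretch of 60 bases. Since 1 spot of 1 probe reads this gene, there is no second probe to set beside it.

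The window before the Srxn1 start site is shown because its gene had the highest ratio and because the letters of NRF2-type elements are found in it. It comes from RefSeq's GRCr8 assembly (chr3:161064562-161064821, forward strand), is written 5′ to 3′ from 250 bases before the start to 10 bases after it, and has the matches in capitals. The capitals mark the core of the antioxidant response element and the AP-1 site TGAGTCA, the letters bound by dimers of FOS and JUN proteins. The core was searched in its C form, TGACNNNGC, and its G form, TGAGNNNGC, on both strands.
Srxn1: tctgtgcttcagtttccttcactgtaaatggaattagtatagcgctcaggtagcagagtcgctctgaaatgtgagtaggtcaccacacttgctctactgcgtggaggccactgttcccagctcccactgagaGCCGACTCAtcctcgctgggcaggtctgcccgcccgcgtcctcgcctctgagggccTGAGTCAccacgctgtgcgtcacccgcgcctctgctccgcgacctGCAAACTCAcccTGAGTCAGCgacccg
Counted from the start site as base 1, with no base 0, the G form was found at -118 to -110 and at -17 to -9 on the reverse strand and at -5 to 4 on the forward strand. An AP-1 site was found at -62 to -56, and another at -5 to 2, where it shares its letters with the third of these cores. The last match crosses the start site, and the bases after the start were added to the printed window after this was seen.

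Txnrd1 encodes the cytosolic thioredoxin reductase, and Txnrd2 the mitochondrial one. Txnrd1 was read by 2 probes, which gave the same direction. The brighter probe, which starts at base 2409 of NM_031614 (chr7:23055528-23055561 of rn4, reverse strand, 34 bases of the probe placed by the file), had a signal of 505 with water and 963 with Na2S3. Its log2 ratio was 0.72 with a spot error of 0.08, a 1.65-fold higher value, at rank 238. The dimmer probe, which starts at base 1472 (chr7:23065196-23065255), had a signal of 106 with water and 218 with Na2S3, a log2 ratio of 0.83 with an error of 0.18 (1.78-fold). The ratios of these probes differ by less than the error of the dimmer one. Probes of 1 gene differed from each other by an SD of 0.24 over the 3181 genes with several measured probes, which is larger than the gap seen here.

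The dimmer Txnrd1 probe is printed because it repeats the ratio of the first probe within its error. With it is printed the window before the second of the 2 Txnrd1 start sites in RefSeq's GRCr8 table (chr7:22755895-22756154, reverse strand), which holds the letters of 1 core in its C form, in capitals, at -78 to -70 on the strand opposite the gene.
Txnrd1 probe: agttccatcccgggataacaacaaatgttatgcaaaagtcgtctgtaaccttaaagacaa
Txnrd1 second start: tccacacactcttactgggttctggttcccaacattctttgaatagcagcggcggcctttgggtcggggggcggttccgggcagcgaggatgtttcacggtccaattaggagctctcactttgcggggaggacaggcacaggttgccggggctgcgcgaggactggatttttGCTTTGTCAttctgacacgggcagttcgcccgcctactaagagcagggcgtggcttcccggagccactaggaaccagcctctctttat
The window before the other Txnrd1 start held no match to any of the 3 motifs.

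Txnrd2 had a signal of 429 with water and 528 with Na2S3. Its log2 ratio was 0.09 with an error of 0.08 (1.07-fold), about the size of its error, and 28.6% of measured genes had a higher ratio. The cytosolic reductase was thus 1.65-fold higher and the mitochondrial reductase near the level of the water array. The gap of Txnrd2 to Prdx6, its neighbour above in the order of ratios, was 0.62 with a combined error of 0.13.

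**Figure D2:**
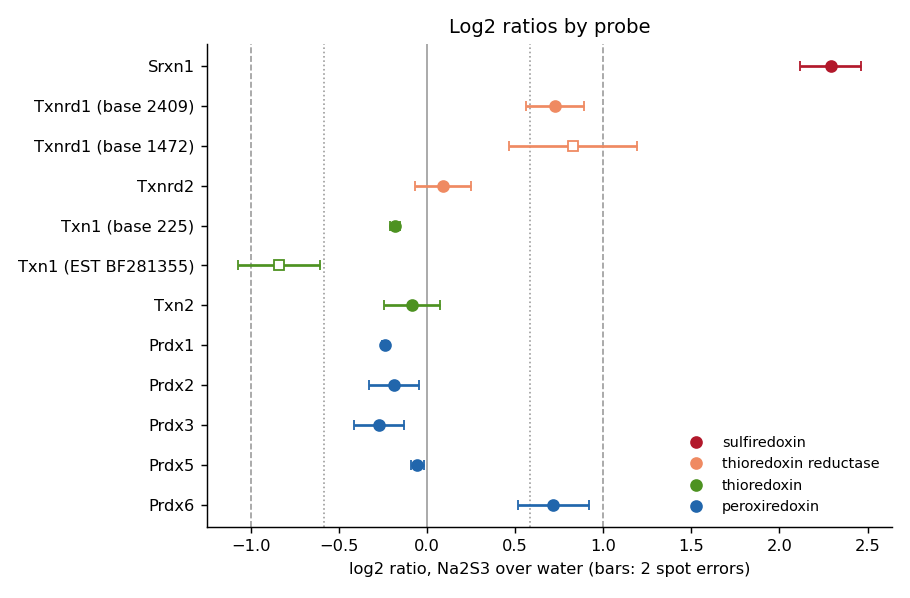
Log2 ratio of the scaled signal, Na2S3 over water, for each probe, with bars of 2 spot errors either side. Filled circles are the brightest probe of a gene and open squares its other probe, dashed lines mark 2-fold and dotted lines 1.5-fold. Srxn1 lies past the 2-fold line at 2.29, the Txnrd1 probes at 0.72 and 0.83 and Prdx6 at 0.72 lie past the 1.5-fold line, and the remaining genes lie between -0.27 and 0.09. The probe on the opposite strand that the files name Txn1 lies apart at -0.84.

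Txn1 encodes the cytosolic thioredoxin and Txn2 the mitochondrial one. The main Txn1 probe was spotted 10 times. On the water array its spots read from 88260 to 93128 with a median of 90760, and on the Na2S3 array from 87839 to 96743 with a median of 92731. Before scaling, the spot values of the arrays overlapped, and the Na2S3 spot was the higher in 7 of 10 positions. After scaling, all 10 spot pairs had a negative ratio, from -0.24 to -0.08, and their mean was -0.18 with an error of 0.01. Whether Txn1 is written as lower or higher thus depended on the scaling: its ratio was 0.05 after quantile normalization, 0.03 after loess and 0.05 in the authors' deposited value table. The gene stayed within 1.5-fold under all 9 alternatives.

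The Txn1 probe is shown because its 10 spots carry this value. It starts at base 225 of NM_053800, and the file places its ends 1341 bases apart in the genome, more than the length of the probe (chr5:75921410-75922750 of rn4, reverse strand). The Prdx1 probe, also spotted 10 times, is printed with it.
Txn1 probe: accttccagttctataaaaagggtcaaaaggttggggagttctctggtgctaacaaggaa
Prdx1 probe: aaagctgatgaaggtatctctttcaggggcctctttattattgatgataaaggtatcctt
A second probe that the files name Txn1 was designed on the expressed sequence tag BF281355 and gave another value. Its signal was 322 with water and 208 with Na2S3, a log2 ratio of -0.84 with an error of 0.12, 1.79-fold lower. It lies directly beside the first, at chr5:75921351-75921410 of rn4, and its coordinates run in the direction opposite to the Txn1 gene. Among probes with a RefSeq accession and a strand in both sources, 95.3% of 16798 ran with their gene. This probe thus lies on the strand opposite to the first one and is not taken as a second reading of Txn1 RNA. What transcript this probe reads was not tested, and the value taken for Txn1 is that of the brighter probe.

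Txn2 had a signal of 1858 with water and 2023 with Na2S3. Its log2 ratio was -0.09 with an error of 0.08, about the size of its error, so neither thioredoxin had a ratio of 1.5-fold or more while cytosolic reductase did. Its probe, at base 394 of NM_053331, likewise has its ends placed far apart (chr7:115834342-115843687 of rn4, reverse strand, 9346 bases).

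The 5 peroxiredoxins split into Prdx6, which was higher, and 4 enzymes with small negative ratios. That of Prdx5 turned positive with quantile normalization, loess and the authors' deposited table. Prdx1 and Prdx2 are the main cytosolic typical 2-Cys peroxiredoxins, the class that sulfiredoxin repairs, and Prdx3 is the mitochondrial one. On the water array the 10 spots of Prdx1 read from 15722 to 18517 with a median of 17274, and on the Na2S3 array from 15817 to 18010 with a median of 17083. Its spot values overlapped between the arrays before scaling, and all 10 scaled spot pairs were below 0, from -0.28 to -0.19. The mean log2 ratio of Prdx1 was -0.24 with an error of 0.0087 from its own spots, or 0.02 from repeat spots of similar brightness. This is 1.18-fold lower, and 80.9% of measured genes had a higher ratio, so the value is precise within these arrays and not far out among genes. Its probe starts at base 412 of NM_057114 (chr5:136983425-136984996 of rn4, forward strand, ends 1572 bases apart).

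Prdx2 had a signal of 26019 with water and 26417 with Na2S3, a log2 ratio of -0.19 with an error of 0.07. Its probe lies at chr19:24836405-24836464 of rn4 on the reverse strand. Under quantile normalization the ratio was -0.04, smaller than the error. For Prdx3, the 2 spots read 4560 and 3541 with water and 4138 and 3566 with Na2S3, in the same order of positions. The spread between spots of 1 array was thus larger than the difference between arrays, and the log2 ratio was -0.27 with an error of 0.07, the lowest of the 10 genes. Its probe lies at chr1:267468941-267468999 of rn4.

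Prdx5, an atypical 2-Cys peroxiredoxin of mitochondria, peroxisomes and cytosol, was read by 10 spots. They ranged from 6655 to 7507 on the water array with a median of 6978, and from 6912 to 8211 on the Na2S3 array with a median of 7902. The Na2S3 spot was the higher in 10 of 10 positions before scaling. After scaling, 8 pairs were below 0 and 2 above, from -0.17 to 0.01, and the mean was -0.05 with an error of 0.02. The sign is therefore a matter of the scaling here too, as it was positive (0.01 to 0.02) with quantile normalization, loess and the authors' deposited table. The probe lies at chr1:209583751-209583924 of rn4, with its ends 174 bases apart.

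**Figure D3:**
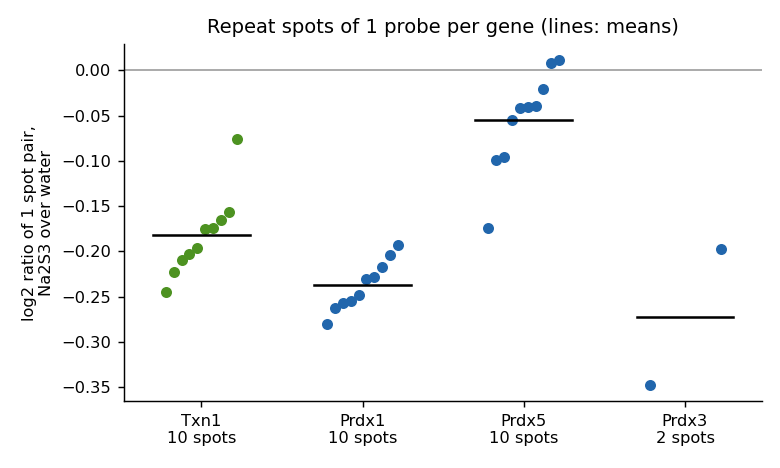
Scaled log2 ratio of each spot pair (same position on both arrays), Na2S3 over water, for the probes of Txn1, Prdx1 and Prdx5 with 10 spots and of Prdx3 with 2, sorted within a gene, with lines at the means. All pairs of Txn1, Prdx1 and Prdx3 lie below 0, whereas those of Prdx5 run from -0.17 to 0.01; the line at 0 is itself set by the scaling.

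Prdx6 encodes the 1-Cys peroxiredoxin, which also has phospholipase activity and is reduced by glutathione rather than by thioredoxin. It is not of the class that sulfiredoxin repairs. Its 1 spot read 4255 with water and 8071 with Na2S3, a log2 ratio of 0.72 with an error of 0.10, and 2 errors either side gave 1.43-fold to 1.89-fold. It ranked 242 among the measured genes, 4 places from Txnrd1, and was the only measured peroxiredoxin of the 5 with a positive ratio under the scaling used. Its probe starts at base 648 of NM_053576 and lies at chr13:76825116-76825175 of rn4 on the reverse strand. The sixth family member, Prdx4 of the endoplasmic reticulum, had a signal of 4848 with water and 5370 with Na2S3 and a log2 ratio of -0.06 with an error of 0.11.

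In order of ratio, from the highest, the genes were Srxn1, Txnrd1, Prdx6, Txnrd2, Prdx5, Txn2, Txn1, Prdx2, Prdx1 and Prdx3. Srxn1 lay 1.57 above Txnrd1, against a combined spot error of 0.12. Txnrd1 and Prdx6 differed by 0.0094, far less than their error of 0.13. From Txnrd2 downwards, none of the 6 gaps between neighbours exceeded 2 combined errors. All 21 pairs of 1 of the upper 3 genes with 1 of the lower 7 differed by more than 2 combined errors. Among the lower 7 genes, 8 of 21 pairs did (7 with the error from spots of similar brightness throughout). All of them had Txnrd2, Prdx5 or Txn1 as the higher gene, so by spot error alone these 7 are not 1 level. The scanner software's own error was larger, about 0.20 for each of these genes, and pairs were not counted against it. Prdx5 lay above Txn1 here but below it with quantile normalization, loess and the authors' deposited table.

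Over the 9 processing alternatives the ranges of Srxn1, of Txnrd1 and Prdx6, and of the other 7 genes did not overlap. Srxn1 ran from 2.26 to 2.34, Txnrd1 from 0.69 to 0.78 and Prdx6 from 0.72 to 0.78. Txnrd2 ran from 0.07 to 0.12. The remaining 6 genes stayed between -0.51 and 0.05. The value of -0.51 is that of Txn1 when the median over its brighter probe and the opposite-strand probe replaces the brighter probe. Under the other alternatives Txn1 ran from -0.18 to 0.05.

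**Figure D4:**
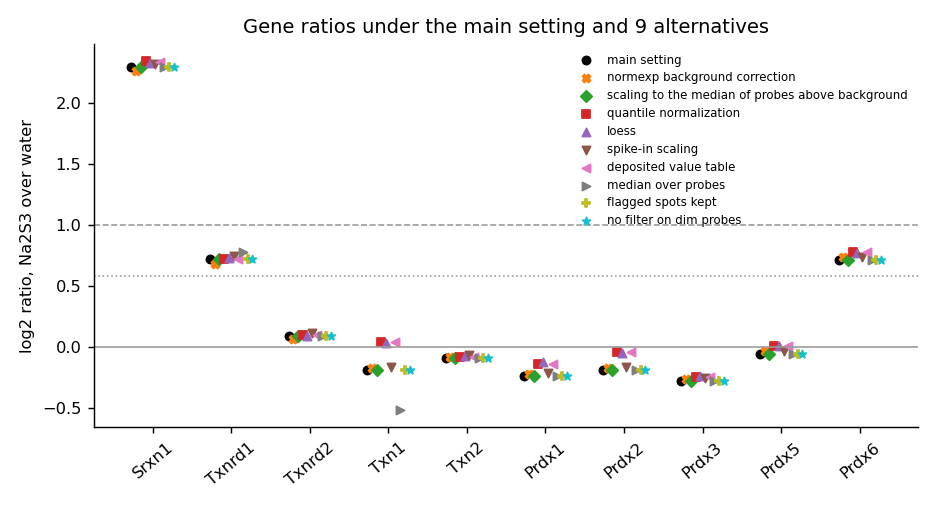
Log2 ratio of each gene, Na2S3 over water, under the main setting (black circles) and 9 alternatives, 1 symbol each, with a dashed line at 2-fold and a dotted line at 1.5-fold. Srxn1 stays between 2.26 and 2.34, and the alternatives move Txn1 the most, from -0.51, where the opposite-strand probe enters its median, to 0.05.

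The letters of these motifs were found before genes at both ends of the order. Of the 10 genes, 9 had a window in RefSeq's GRCr8 table, and Txnrd1 had 2, which gave 10 windows of 300 bases, from 250 before to 50 after the start. A core in either form was found in 4 windows, those of Srxn1, Txnrd1, Prdx1 and Prdx5, and an AP-1 site in 2, those of Srxn1 and Prdx1. Over all 33469 windows of the table, the C form was found in 12.1%, the G form in 17.2%, either form in 27.1% and the AP-1 letters in 4.63%. A window with both a core and an AP-1 site, which may share letters, was found for 1.77%. The AP-1 letters followed by GC are also a G form, and the C form can hold them on the other strand, so these counts are not independent. Srxn1 and Prdx1 both had such a window, and their log2 ratios were 2.29 and -0.24.

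The Prdx1 window is printed for comparison with that of Srxn1 (chr5:135383656-135383915 of GRCr8, forward strand, 250 bases before to 10 after the start). The capitals mark an AP-1 site at -248 to -242 on the reverse strand, and a C form at -135 to -127 on the reverse strand that overlaps a forward AP-1 site at -133 to -127.
Prdx1: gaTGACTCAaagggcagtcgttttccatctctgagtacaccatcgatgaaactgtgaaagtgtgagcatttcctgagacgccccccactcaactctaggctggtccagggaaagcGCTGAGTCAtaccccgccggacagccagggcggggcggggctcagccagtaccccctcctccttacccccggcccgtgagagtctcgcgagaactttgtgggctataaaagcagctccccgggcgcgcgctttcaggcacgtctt
In Prdx5 a C form lay across the start, at -1 to 8. The remaining 6 windows held no match, which says only that these letters are not in those bases.

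Around the 10 genes, the rest of the thioredoxin system was mostly within 1.5-fold of the water array. Of 23 other listed thioredoxin-fold and thioredoxin-system genes, 21 were measured, 0 were 2-fold different, and 6 had a positive ratio (9 with loess), with a median of -0.11. Of all measured genes, 0.942% were at least 2-fold higher, 0.62% at least 2-fold lower and 43.4% positive. In a list of this size, 0 past 2-fold is near those shares. At 1.5-fold the shares were 2.96% higher and 3.41% lower. The 1 gene past 1.5-fold was Txnip, the thioredoxin-interacting protein that binds reduced thioredoxin and limits its activity. Its signal was 993 with water and 675 with Na2S3, a log2 ratio of -0.76 with an error of 0.08, 1.70-fold lower. Glrx, glutaredoxin, had a ratio of -0.32, and Txnrd3, a reductase best known from testis and dim on these arrays with signals of 36.1 and 33.9, had -0.30 with an error of 0.39.

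The genes of thioredoxin clients, most of them proteins that take electrons from thioredoxin, likewise had ratios near 0. Of 9 listed thioredoxin clients, such as ribonucleotide reductase and the methionine sulfoxide reductases, 8 were measured and 0 were 1.5-fold different, with a median of -0.12. Over all measured genes, 2.96% were at least 1.5-fold higher and 3.41% lower, so 0 of 8 is near those shares. The lowest was Apex1, a DNA repair enzyme that thioredoxin reduces, at -0.22. All 10 genes of NADPH supply, which feeds the reductase, were measured, 0 were 1.5-fold different and 10 had negative ratios, with a median of -0.14. Here too 0 of 10 past 1.5-fold is near the shares of all measured genes, of which 43.4% had a positive ratio. Pgd of the pentose phosphate pathway was the lowest at -0.42 with an error of 0.08. With loess, 3 of the 10 had a positive ratio, so the shared sign depends on the scaling.

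The glutathione, catalase and superoxide dismutase list, the parallel antioxidant branch, had 12 of 16 genes measured, with a median of 0.02, which was 0.13 with quantile normalization and in the authors' deposited table, 0.14 with loess and -0.06 with no filter on dim probes. Its 1 gene past 2-fold was Gpx6, with signals of 51.3 and 129, a log2 ratio of 1.12 and an error of 0.19. Among all measured genes, 0.942% passed 2-fold upwards and 0.62% downwards. With normexp background correction, 0 genes of this list reached 1.5-fold. Gsr, glutathione reductase, had 0.40 with an error of 0.18, and Gclc, the catalytic subunit that makes the glutathione precursor, had 0.26 with an error of 0.07. Neither reached 1.5-fold.

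**Figure D5:**
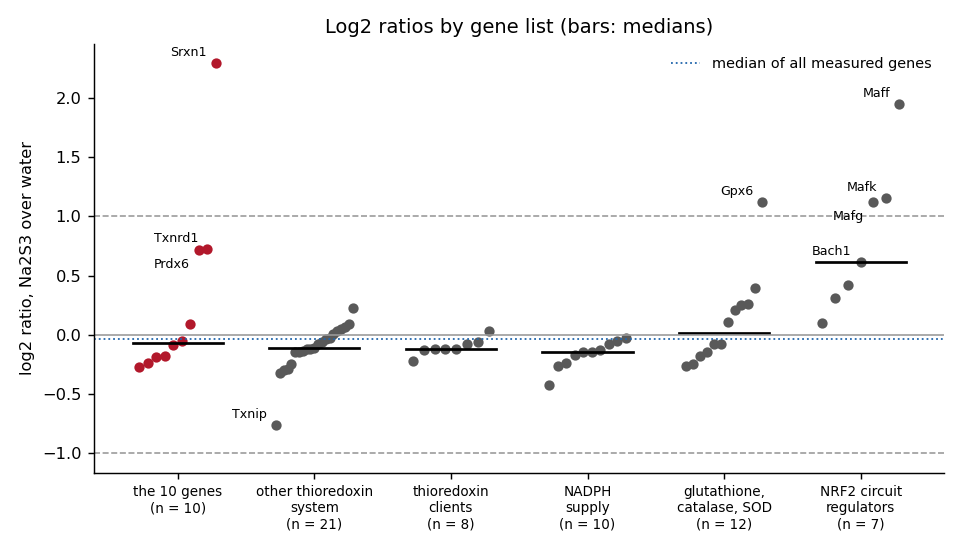
Log2 ratio of each measured gene, Na2S3 over water, for the 10 genes (red) and 5 related lists (grey), with bars at the medians, dashed lines at 2-fold and a dotted line at the median of all measured genes, -0.04. Named points are those at 0.6 or more either way; Srxn1 is the highest of those drawn, at 2.29, and Txnip the lowest, at -0.76.

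The list of regulators of the antioxidant response holds 7 genes. All were measured and 7 of 7 ratios were positive; 3 passed 2-fold and 4 passed 1.5-fold, with a median of 0.61. Of all measured genes, 0.942% passed 2-fold upwards, 2.96% passed 1.5-fold and 43.4% were positive. The genes of the small MAF proteins, the dimer partners of NRF2, were the 3. Maff had signals of 501 and 2233 and a log2 ratio of 1.95. Mafk was dim, with signals of 108 and 277, and had 1.16 with an error of 0.16, while Mafg had 1.12. Bach1, the repressor that competes with NRF2 for the same elements, had 0.61 with an error of 0.19. Nfe2l2, which encodes NRF2, had 0.42 with an error of 0.08, and Keap1 had 0.10 with an error of 0.16. With normexp, 2 of the 7 passed 2-fold and 3 passed 1.5-fold.

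Of 15 listed NRF2 targets, a list that holds Srxn1 and Txnrd1, 14 were measured, of which 4 passed 2-fold and 5 passed 1.5-fold upwards (3 and 5 with normexp), with a median of 0.33. Over all measured genes these shares were again 0.942% and 2.96%. Srxn1 was the second of these after Osgin1 at 2.55 (signals of 48.1 and 326). Slc7a11, the cystine transporter, followed at 2.09 (signals of 43.9 and 216, error of 0.19, its other probe not measured). Hmox1, heme oxygenase, had 1.02. Txnrd1 came next at 0.72. Nqo1, another commonly used marker of NRF2 activity, had 0.11 with an error of 0.10, and the ferritin genes Ftl1 and Fth1 had -0.34 and -0.28.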

How the data were processed

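Spot intensity values on a linear scale, in 1 channel, were deposited as Agilent Feature Extraction output (version 10.7.1.1 per the file headers, 9.5.1.1 per the submitters' processing notes). The processed signal is background-corrected by that software within the array, per the file headers. The deposited value table also holds intensity values, with a normalization not named in the sources used here. Sorted by size, the values of its columns differ by at most 0.36 intensity units. They thus have nearly the same distribution, as quantile normalization gives. Its columns share a median of 19.3, and on the log2 scale each follows its array's processed signal with a Pearson r of 0.99997 across probes, so scale and direction are known. Both arrays lay on 1 slide, per the file headers.

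Outlier spots were left out (448 and 390), 0 spots were saturated, log2 signals were averaged per probe and the 75th percentile over non-control probes was subtracted. A probe counted as above background when over 50% of the spots had Feature Extraction's flag for it. Genes take the value of the brightest probe above background on both arrays. The spot error comes from probes spotted 10 times within 0.5 log2 units of signal, except that the Txn1, Prdx1 and Prdx5 probes with 10 spots use the spread of their own spots. Gene names came from the files' accessions through RefSeq's GRCr8 table (21109 probes) or from the files (14743), and 9746 probes had none. Coordinates are those of the files (rn4), and exon positions were not analysed here. Genes were counted by a rule of size, 2-fold or 1.5-fold. The text names all 10 genes, up to 4 genes per list with the largest ratio either way, and Txnip, Prdx4, Nfe2l2, Keap1 and Bach1. Other genes named were chosen after their values were seen. The members and lists were chosen with earlier results of these data known. Python (numpy 2.4.6, pandas 2.3.3, matplotlib 3.10.9) and R 4.3.3 with limma 3.58.1 were used.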

Additional observations from a re-analysis of the deposited data

How the results depend on the processing

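The 9 alternatives were normexp background correction (offset 50), scaling to the median of probes above background, quantile normalization, loess, spike-in scaling (7 probes), the authors' deposited value table, the median over a gene's probes, outlier spots kept, and no filter on dim probes. The 2-fold call of each of the 10 genes was the same in 90 of 90 gene and setting pairs. Several of these pairs could hardly have changed a call. All probes of the 10 genes were above background, so dropping the filter left their values unchanged. None of their spots was an outlier, so keeping outlier spots acted only through the scaling. Scaling to the median gave nearly the main values, and the median over probes could move only Txnrd1 and Txn1. The ratio of Txn1 was positive with quantile normalization (0.05), loess (0.03) and the deposited table (0.05), and that of Prdx5 with the same 3 (0.01, 0.02 and 0.01), so that 6 of the 10 genes were positive there. Quantile normalization and the deposited table are nearly 1 alternative, as each gave 141 genes at least 2-fold higher and 67 lower. The second Txnrd1 probe ran from 0.60 with normexp to 0.88, and the opposite-strand probe named Txn1 stayed between -0.84 and -0.71. Genes at least 2-fold higher numbered 61 with normexp and 1062 with no filter, and lower ones 31 and 1545, against 123 and 81. The unfiltered counts cover 27235 genes, many not above background. The share of higher calls was 60.3%, 67.8% with quantile normalization and 40.7% with no filter. No paired analysis was possible because each group has 1 array. Both the number of arrays and, for dim probes, the signal over background limit these values.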
